A study of Mus musculus with 18 samples.

Results

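Genes that are known to differ in sequence, copy number or expression between C57BL/6 substrains were followed library by library in the retina. The 7 genes were Nnt, Gabra2, Wdfy1, Entpd4, Ide, Cyfip2 and Crb1, out of 35006 gene names in each count table, and all 7 were among the 16183 genes with enough reads to be tested. They were selected by symbol, and the selection was made when the levels of several of them in the WT + NACET libraries were already known. For that reason every contrast that holds the WT + NACET libraries is given for these 7 genes as levels and fold changes with no test, and tests are given for the 3 contrasts among the other groups.

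The libraries came from the retinas of male mice that were 24 weeks old. WT mice were C57BL/6J. Akita mice (C57BL/6-Ins2Akita/J) carry a dominant mutation in 1 copy of the insulin gene Ins2, become diabetic when young and are used as a model of diabetic retinopathy. All of the mice were obtained from Jackson Laboratories according to the study's methods. The labels give neither a colony nor a genotype at any of these genes. NACET, an ethyl ester of N-acetylcysteine with antioxidant action, was taken with the drinking water (0.33 mg/mL, for 50 mg/kg a day) from 4 weeks of age until 24 weeks, and the other mice had plain water. There were 3 WT, 6 WT + NACET, 4 Akita and 5 Akita + NACET libraries. The labels do not say whether a library held 1 animal or several, so p-values measure the spread between these libraries.

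C57BL/6J and C57BL/6N were separated decades ago and have since fixed different mutations. C57BL/6J lacks several exons of Nnt and has a single-base deletion beside a splice acceptor of Gabra2, which lowers its transcript. C57BL/6N carries the rd8 frameshift in Crb1, a known cause of retinal lesions in that substrain, and a missense change in Cyfip2. A segment of chromosome 19 with Ide and Fgfbp3 is known to vary in copy number among C57BL/6J mice themselves. Such alleles travel with the animals of a colony, so these genes are often read as tags of where mice came from.

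Between 11590384 and 18073791 reads per library were assigned to genes. All 7 rod markers were found in every library, with summed levels of 84480 to 200955 CPM (a gene's reads relative to the library total, scaled by the trimmed mean of M values). Lens markers reached 15116 CPM in a WT + NACET library, 1308 CPM in an Akita library and 644 CPM in an Akita + NACET library. In the WT libraries they were at most 8.95 CPM. Pigment epithelium markers summed to 147 to 534 CPM in WT and 326 to 1402 CPM in WT + NACET. They summed to 59.5 to 211 CPM in Akita and 88.6 to 671 CPM in Akita + NACET. The part of lens and pigment epithelium markers in the levels given here was not tested. Reads outside annotated exons made up 16.3% ± 1.24 (SD, n = 3) of the uniquely aligned reads in WT, 12.7% ± 2.74 (n = 6) in WT + NACET, 11.5% ± 1.83 (n = 4) in Akita and 16.4% ± 2.11 (n = 5) in Akita + NACET. Akita replicate 4 had the lowest scaling factor of all libraries (0.803).

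Per length of exon the genes spanned a wide range in retina. Over the 18 libraries the mean level was 48.4 RPKM (the CPM divided by the kilobases of annotated exon) for Crb1, 25.9 for Cyfip2, 23.5 for Entpd4, 21.6 for Ide, 6.62 for Wdfy1, 4.65 for Gabra2 and 1.75 for Nnt. Cyfip2, Entpd4 and Ide were neighbours whose library ranges overlapped (21.3 to 30.0, 17.3 to 26.7 and 14.7 to 35.7 on the same scale). The place of Wdfy1 was not the same in every group. In WT it was below Gabra2, at 2.31 ± 0.24 against 3.74 ± 0.90 RPKM (SD, n = 3). In WT + NACET it stood above Gabra2, at 15.1 ± 0.84 against 8.01 ± 1.06 (SD, n = 6), and close to Ide at 17.4 ± 1.38.

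**Figure D1:**
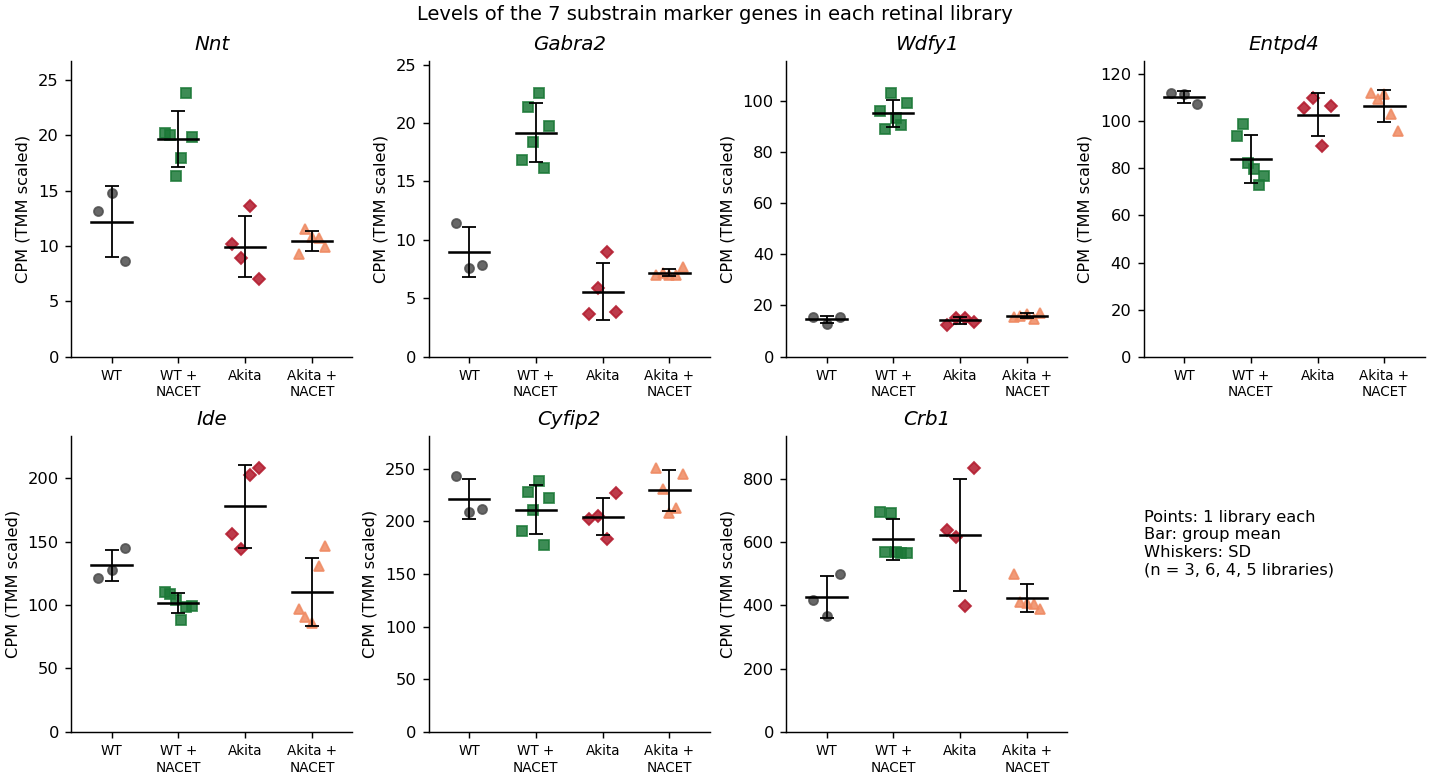
Level of each gene in CPM (vertical axis, from 0) in the WT, WT + NACET, Akita and Akita + NACET libraries, with a point for each library, a bar for the group mean and whiskers for the SD. Nnt, Gabra2 and Wdfy1 are separated in WT + NACET from every other library, Wdfy1 by the widest margin (89.0 to 103 against 12.4 to 17.0 CPM), while Cyfip2 overlaps in all 4 groups.

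In 3 of the 7 genes the WT + NACET libraries lay wholly above the other 12, and in none wholly below. Among all tested genes 1.19% were separated in this way in either direction (192 genes, 126 of them higher). Since the genes were chosen with these levels known, the count is a description. The same 3 genes were separated with DESeq2 size factors. Leaving out 1 library cannot by itself undo a full separation, so the leave-one-out runs do not bear on it. Without a scaling factor Nnt overlapped and 2 genes, Gabra2 and Wdfy1, remained.

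Wdfy1 (chr1:79698837-79772718 in mm9, minus strand) encodes an endosomal adaptor protein that takes part in Toll-like receptor signalling. Its level was 15.4, 12.8 and 15.5 CPM in the WT libraries and 12.4, 15.3, 15.3 and 13.7 CPM in the Akita libraries. In the Akita + NACET libraries it was 15.4, 16.0, 16.8, 14.8 and 17.0 CPM. The 12 libraries thus shared a narrow band, with coefficients of variation of 10.4% in WT, 9.79% in Akita and 5.81% in Akita + NACET. In the 6 WT + NACET libraries the lowest, median and highest levels were 89.0, 94.6 and 103 CPM, from 1245 to 1642 reads. The fitted log2 difference from WT was 2.71 ± 0.10 (SE), or 6.53-fold. By the ratio of means between WT + NACET and the other 12 libraries, 25 of the tested genes differed more than Wdfy1. Exons of Wdfy1 overlap those of Mrpl44, an opposite-strand gene, and reads were counted without strand. Mrpl44, whose start is 0.125 kb away, had 31.3 ± 0.77 CPM in WT (n = 3) and 33.5 ± 2.57 CPM in WT + NACET (SD, n = 6).

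Gabra2 (chr5:71352296-71487088, minus strand) encodes the alpha 2 subunit of the GABA-A receptor, the chloride channel of fast inhibitory transmission. Levels were 11.4, 7.59 and 7.83 CPM in WT and 3.65, 5.91, 8.92 and 3.81 CPM in Akita. They were 6.96, 7.19, 7.02, 7.02 and 7.71 CPM in Akita + NACET. The Akita libraries scattered most, with a coefficient of variation of 44.1%, and the Akita + NACET libraries least, with 4.27%. WT + NACET libraries ran from 16.2 over a median of 19.0 to 22.6 CPM, so that the lowest of them was above the highest other library (WT replicate 1). The fitted log2 difference from WT was 1.10 ± 0.21 (SE), or 2.14-fold.

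The substrain allele of Gabra2 sits next to a splice acceptor, so the acceptors of its only annotated transcript are shown as the reference has them. The mm9 reference was made from C57BL/6J. Lower case marks the last 20 bases of the intron and capitals mark the first 10 bases of the exon, read on the minus strand of chromosome 5. Every intron ends in AG.
Gabra2 exon 2, chr5:71485848-71485877: ttttgttttttcttccatagCTTTGGCAAC
Gabra2 exon 3, chr5:71483317-71483346: gtgtaaaattatctgtttagGTTGGTGCTG
Gabra2 exon 4, chr5:71426027-71426056: ctttcttttcttcctcttagACAGTATTAC
Gabra2 exon 5, chr5:71405866-71405895: aattgtaaatttatatttagGAGTATACAA
Gabra2 exon 6, chr5:71404013-71404042: agtggcattttggcttctagGCTTACAGTC
Gabra2 exon 7, chr5:71399296-71399325: ttgttccttgttcatgacagACGCTTACAC
Gabra2 exon 8, chr5:71397489-71397518: ttcttaaattctccttccagGTGAATATAC
Gabra2 exon 9, chr5:71364857-71364886: tcctgtctcttcttttacagGAGTAACAAC
Gabra2 exon 10, chr5:71353328-71353357: acttttgtattttccattagAAAAAAGAGA

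The deposited values are whole-gene counts, so neither the bases that the mice carry at these sites nor the junctions that were used can be read from them.

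Nnt (chr13:120124255-120197804, minus strand) encodes the mitochondrial nicotinamide nucleotide transhydrogenase, which makes NADPH for the glutathione and thioredoxin systems. Per length it had the lowest mean of the 7 genes. WT libraries had 13.1, 14.8 and 8.61 CPM and Akita libraries had 10.2, 8.92, 13.6 and 7.05 CPM. Akita + NACET libraries had 9.23, 11.6, 10.8, 10.7 and 9.93 CPM. WT + NACET libraries had 16.3, 19.9 and 23.8 CPM as lowest, median and highest, a log2 difference of 0.70 ± 0.18 (SE) from WT, or 1.62-fold. The gap to the nearest other library was narrow (16.3 against 14.8 CPM in WT replicate 2). The annotation lists 7 Nnt transcripts, of which 2 have 35 exons. Reads from exons that C57BL/6J lacks have no place in a genome made from that strain, so the counts cover the remaining exons, and an intact transcript and a shortened one were counted alike.

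Entpd4 (chr14:69955208-69985327, plus strand) encodes a nucleoside diphosphatase of the Golgi and lysosome. It was 112, 112 and 107 CPM in WT, 106, 110, 89.4 and 106 CPM in Akita, and 112, 110, 112, 103 and 96.0 CPM in Akita + NACET. WT + NACET libraries were the lower ones, with 72.8, 80.9 and 98.7 CPM as lowest, median and highest. Only 2 libraries of the other groups fell within that range, Akita replicate 3 (89.4 CPM) and Akita + NACET replicate 5 (96.0 CPM). The log2 difference from WT was -0.39 ± 0.09 (SE), or 1.31-fold lower. An opposite-strand gene, Gm16867, shares exonic bases with Entpd4.

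Cyfip2 (chr11:46007357-46125852, minus strand) is a subunit of the WAVE regulatory complex, which drives actin branching. Levels were 243, 209 and 212 CPM in WT, 202, 205, 183 and 227 CPM in Akita, and 251, 231, 208, 212 and 245 CPM in Akita + NACET. WT + NACET libraries had 178, 216 and 238 CPM as lowest, median and highest. The groups overlapped throughout, with a log2 difference of -0.07 ± 0.10 (SE) between WT + NACET and WT. The known substrain change in Cyfip2 alters a codon, which gene counts do not report. C030019I05Rik on the opposite strand shares exonic bases with it.

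Crb1 (chr1:141093633-141273677, minus strand) encodes the Crumbs polarity protein at the outer limiting membrane, where Mueller glia and photoreceptors adhere. WT libraries had 418, 366 and 498 CPM and Akita libraries had 638, 616, 399 and 835 CPM. Akita + NACET libraries had 499, 412, 408, 403 and 387 CPM, and replicate 1 stood apart from the other 4. WT + NACET libraries had 564, 569 and 694 CPM as lowest, median and highest, all above the WT libraries but within the span of Akita, a log2 difference of 0.51 ± 0.16 (SE), or 1.42-fold. The rd8 change is a single-base deletion, and counts do not report it.

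Ide (chr19:37343233-37412342, minus strand) encodes the insulin-degrading enzyme, a metalloprotease that also cleaves amyloid beta. Levels were 122, 128 and 145 CPM in WT and 156, 144, 203 and 208 CPM in Akita. The Akita + NACET libraries fell into a low trio and a high pair, at 97.0, 90.7 and 85.7 CPM in replicates 1 to 3 and 131 and 146 CPM in replicates 4 and 5. WT + NACET libraries had 88.2, 102 and 110 CPM as lowest, median and highest, below all WT and Akita libraries. The log2 difference between WT + NACET and WT was -0.38 ± 0.15 (SE), or 1.30-fold lower.

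In the WT background, NACET and any other difference between the mice of the 2 groups cannot be told apart. NACET was also given to Akita mice, and that contrast does not use the WT + NACET libraries. There the log2 difference (Akita + NACET minus Akita) was 0.18 for Wdfy1, with a 95% interval of -0.0059 to 0.36. It was 0.35 for Gabra2 (-0.072 to 0.78) and 0.07 for Nnt (-0.29 to 0.42). None of the 3 passed the threshold of an adjusted p of 0.05 in edgeR's quasi-likelihood test (adjusted p = 0.186, 0.259 and 0.827). Without Akita replicate 3, Gabra2 had a log2 difference of 0.68 and passed (adjusted p = 0.0380 by edgeR), and with each other library left out in turn it did not. In WT + NACET vs WT the fitted differences were 2.71 ± 0.10 (SE) for Wdfy1, 1.10 ± 0.21 for Gabra2 and 0.70 ± 0.18 for Nnt. The choice of genes used these differences, so they get no interval and cannot be weighed against the intervals in Akita. The difference between the 2 contrasts was not tested.

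**Figure D2:**
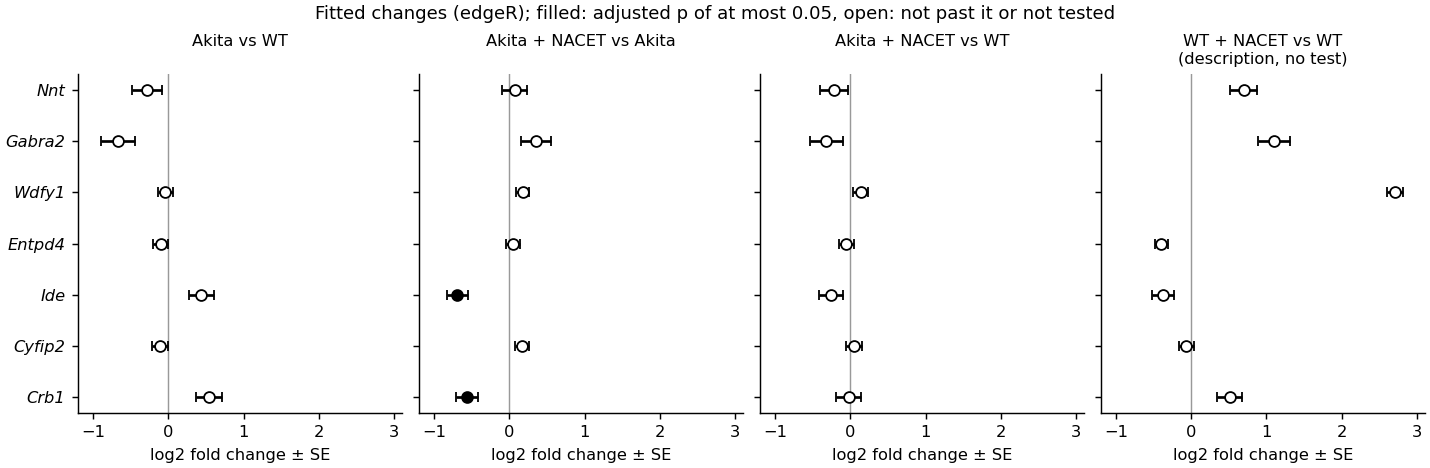
Fitted log2 fold change (horizontal axis) with its SE for the 7 genes in 4 contrasts, with filled points for an adjusted p of at most 0.05 and open points for the rest. Ide and Crb1 are filled in Akita + NACET vs Akita, at -0.69 and -0.56, and the untested WT + NACET contrast reaches 2.71 for Wdfy1.

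Ide and Crb1 were the 2 of 7 genes that passed the test in Akita + NACET vs Akita, where 9.65% of all tested genes passed (1562, of which 832 were lower). Both were lower with NACET. Ide fell from 178 ± 32.4 CPM (SD, n = 4) to 110 ± 26.9 CPM (SD, n = 5), a log2 change of -0.69 ± 0.14 (SE, adjusted p = 0.0192 by edgeR). Crb1 fell from 622 ± 178 CPM to 422 ± 44.3 CPM, a log2 change of -0.56 ± 0.15 (adjusted p = 0.0293 by edgeR). The groups overlapped for both genes, through Akita + NACET replicate 5 for Ide and Akita replicate 3 for Crb1. The median over the 7 genes was 0.07 on the log2 scale, beside -0.0032 over all tested genes. With the share of reads outside exons in the fit the log2 changes were of similar size (-0.76 for Ide and -0.51 for Crb1), but neither passed (adjusted p = 0.628 for both by edgeR), nor did any other tested gene. Without Akita replicate 4, Ide had an adjusted p of 0.0638 and Crb1 of 0.11 by edgeR. The call on Crb1 was also lost without Akita replicate 1 (0.0568) or Akita + NACET replicates 2 (0.0653), 4 (0.0548) or 5 (0.0788), by edgeR in each case.

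Akita vs WT gave 0 of 7 genes past the threshold in edgeR, against 7.64% of all tested genes (1237). At an unadjusted p under 0.05, which 27.0% of all tested genes reached, there were 3, namely Crb1 higher in Akita (log2 change 0.54, adjusted p = 0.0582), Gabra2 lower (-0.67, adjusted p = 0.0717) and Ide higher (0.43, adjusted p = 0.0976). DESeq2 fitted to all groups passed 2 of them, Gabra2 and Crb1, and DESeq2 on the 2 groups passed 0. In edgeR, Gabra2 and Crb1 passed without Akita replicate 3 (adjusted p = 0.0130 and 0.0143), and Crb1 passed without WT replicate 3 (0.0396). The median over the 7 genes was -0.10, beside -0.015 for all tested genes. Wdfy1 was at -0.04 with a 95% interval of -0.25 to 0.17.

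Akita + NACET vs WT gave 0 of 7 genes past the threshold in edgeR and in DESeq2, and edgeR passed 0.00618% of all tested genes (1 gene). At an unadjusted p under 0.05 by edgeR there were 0 of 7, beside 4.63% of all tested genes. The widest difference was that of Gabra2, with -0.32 and an interval of -0.77 to 0.13. In WT + NACET vs WT, the contrast that is not tested here for the 7 genes, 1.48% of all tested genes passed (240). The 4 contrasts share control samples, so they are not independent of each other.

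Ide was followed by its neighbours on chromosome 19. Of all tested genes, Fgfbp3, a secreted carrier of fibroblast growth factors that starts 418 kb from Ide, had the level most like it over the 18 libraries (Pearson r of log2 CPM 0.87, and 0.87 after the group means were removed). WT libraries had 29.7, 26.5 and 34.3 CPM of Fgfbp3 and Akita libraries had 26.3, 29.0, 30.5 and 36.7 CPM. WT + NACET libraries had 19.1, 20.1 and 24.3 CPM as lowest, median and highest. In Akita + NACET, replicates 1 to 3 had 18.5, 17.7 and 17.5 CPM and replicates 4 and 5 had 29.0 and 35.9 CPM, the same trio and pair as for Ide. No library lay between 24.3 and 26.3 CPM, but wider gaps lay from 21.3 to 24.3 CPM and from 30.5 to 34.3 CPM. In Akita vs WT the log2 change was 0.02 for Fgfbp3 and 0.43 for Ide.

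**Figure D3:**
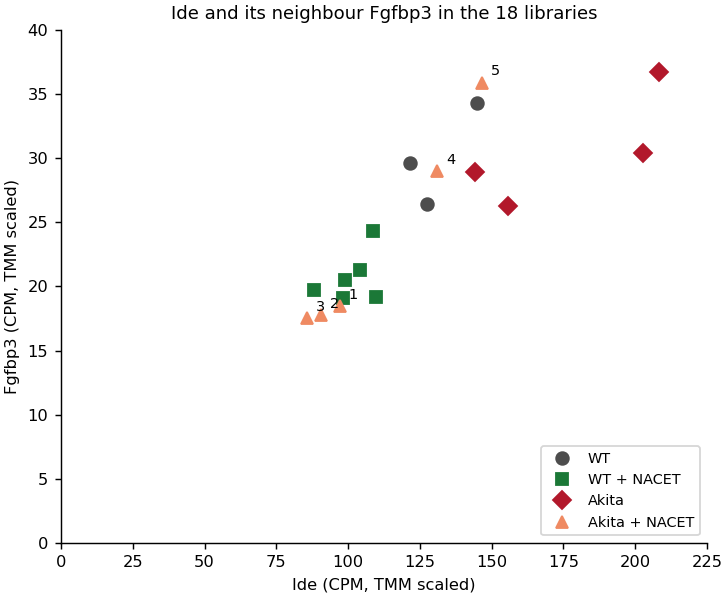
Ide (horizontal axis) against Fgfbp3 (vertical axis), both in CPM, with a point for each of the 18 libraries and replicate numbers beside the Akita + NACET points. Akita + NACET replicates 1 to 3 sit at the low end beside the WT + NACET libraries, at 17.5 to 18.5 CPM of Fgfbp3, and replicates 4 and 5 sit with the WT libraries, at 29.0 and 35.9 CPM.

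Btaf1, which encodes a regulator of the TATA-binding protein and starts 412 kb from Ide, showed the same split and was singled out after its values were seen. It had 56.9, 61.9 and 59.0 CPM in Akita + NACET replicates 1 to 3 and 89.3 and 91.6 CPM in replicates 4 and 5. WT libraries had 73.5 to 82.1 CPM, Akita libraries 73.0 to 89.5 CPM and WT + NACET libraries 44.2 to 63.0 CPM. Its r with Ide was 0.80, and 0.85 with group means removed. The genes nearer to Ide tracked it less closely, with r of 0.47 (0.19 with group means removed) for Cpeb3 at 129 kb and 0.32 (0.52) for March5 at 130 kb. In Akita + NACET vs Akita, Fgfbp3 did not pass the test (log2 change -0.37 ± 0.18, adjusted p = 0.179 by edgeR), nor did Btaf1 (adjusted p = 0.439 by edgeR). The split within the Akita + NACET group thus lies inside the contrast in which Ide passed, and its part in that call was not tested. All of these correlations come from the same libraries, whose depth and scaling are shared by both genes of a pair.

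The rod markers and the outside-exon share are given beside Crb1. The 7 rod markers summed to 131210 to 200955 CPM in Akita and 84480 to 114548 CPM in Akita + NACET, with no overlap, and to 91418 to 124972 CPM in WT and 114089 to 152106 CPM in WT + NACET. Of the 7, 5 passed as lower in Akita + NACET vs Akita and 2 passed as higher in Akita vs WT. Mueller glia markers, from the other cells that make Crb1, summed to 1275 to 2390 CPM in Akita and 1964 to 2317 CPM in Akita + NACET. In bulk retina, fewer cells of a type and less RNA per cell cannot be told apart. Within groups the order of the libraries in these measures was the same only in part. Akita replicate 4 and WT replicate 3 were the highest of their groups in both Crb1 and the rod sum. Akita + NACET replicate 5 was the lowest of its group in both. By contrast, Akita replicate 3 had 399 CPM of Crb1 with a rod sum of 133646 CPM and an outside-exon share of 9.67%. Akita replicate 2 had 616 CPM with 131210 CPM and 12.9%. The part of the rod markers and of the outside-exon share in the Crb1 result was not tested beyond the fit with that share given above. The genes most like Crb1 over the 18 libraries were Rp2h, the mouse counterpart of a retinitis pigmentosa gene (r = 0.94), Herpud1, an endoplasmic reticulum stress gene (r = -0.94), and Pde6c, the cone phosphodiesterase (r = 0.92). With group means removed the values were 0.90, -0.90 and 0.85.

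**Figure D4:**
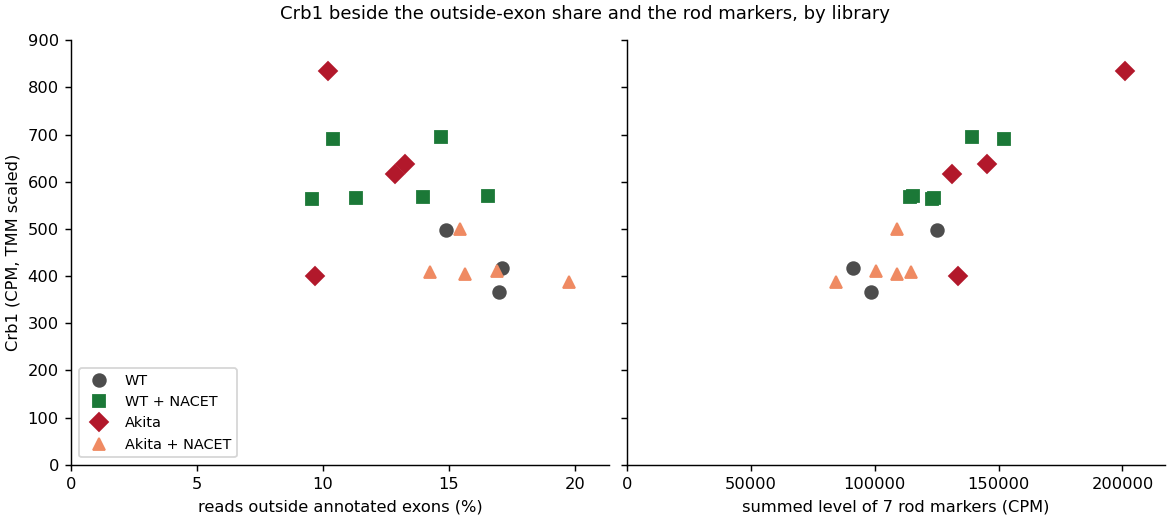
Crb1 in CPM (vertical axis) against the share of uniquely aligned reads outside annotated exons (left, percent) and against the summed level of 7 rod markers (right, CPM), with a point for each library. Akita replicate 4 is highest in Crb1 (835 CPM) and in rod markers (200955 CPM), and Akita replicate 3 is low in Crb1 (399 CPM).

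For the other genes, likeness is a description over 18 libraries that share depth and scaling. Nnt was most like Clu, the chaperone clusterin (r = 0.96, and 0.88 with group means removed), followed by Glb1l3 (r = -0.93) and Ezh1 (r = -0.92). Clu had 991 to 1230 CPM in WT + NACET and 374 to 950 CPM in the other groups. Wdfy1 had Acp1, a low-molecular-weight phosphatase (r = -0.99), and Gm9493 (r = -0.98) among the 3 closest. Both were wholly lower in WT + NACET, Acp1 with 2.05 to 3.14 CPM against 26.7 to 40.1 CPM in the other groups. With group means removed these r were 0.10 and 0.06, so the likeness to Wdfy1 was that of the group levels. Gabra2 was most like Pate2 (r = -0.94), Ntsr2, a neurotensin receptor (r = 0.93), and Tmem116 (r = -0.92). Entpd4 was most like Cbx7 (r = 0.90), Zan (r = 0.90) and Slc38a6 (r = 0.90). Cyfip2 was most like Prkce, a protein kinase C (r = 0.92), H2-Aa (r = -0.90) and Tprkb (r = -0.89). After Fgfbp3, Ide was most like Acly, the ATP citrate lyase (r = 0.86), and Madd (r = 0.85). None of these partners except Fgfbp3 lay within 1 Mb of its gene.

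Among the 7 genes themselves, Nnt, Gabra2 and Wdfy1 went together across the libraries (r = 0.88 for Nnt with Gabra2, 0.84 for Nnt with Wdfy1 and 0.90 for Gabra2 with Wdfy1). Within groups the same values were 0.40, -0.20 and 0.54. Nnt and Crb1 went apart within groups (r = -0.83) though hardly across all libraries (r = 0.08). Gabra2 and Crb1 did likewise, with -0.69 within groups and 0.11 across all.

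Genes around the 7 were examined for the same separation, since a linked allele can carry its neighbours. Of 82 tested genes that start within 1 Mb, 2 (2.44%) had WT + NACET libraries wholly above or below the others, beside 1.19% of all tested genes. Near Nnt, at 83.7 kb, Gm7120 was lower, with 2.36 to 6.90 CPM in WT + NACET and 7.03 to 13.2 CPM elsewhere. Near Cyfip2, at 357 kb, Thg1l, the enzyme that adds a guanosine to histidine tRNA, was higher, with 10.7 to 13.2 CPM against 5.68 to 9.61 CPM elsewhere. Thg1l also fell in Akita + NACET vs Akita (log2 change -0.43 ± 0.11, adjusted p = 0.0292 by edgeR). None of the 9 neighbours of Wdfy1, the 3 of Gabra2 (all of them GABA-A subunit genes), the 27 of Entpd4, the 21 of Ide and the 8 of Crb1 was separated. By edgeR, 7 of the 82 neighbours (8.54%) passed in Akita + NACET vs Akita, 3 (3.66%) passed in Akita vs WT and 0 passed in Akita + NACET vs WT, beside 9.65%, 7.64% and 0.00618% of all tested genes.

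**Figure D5:**
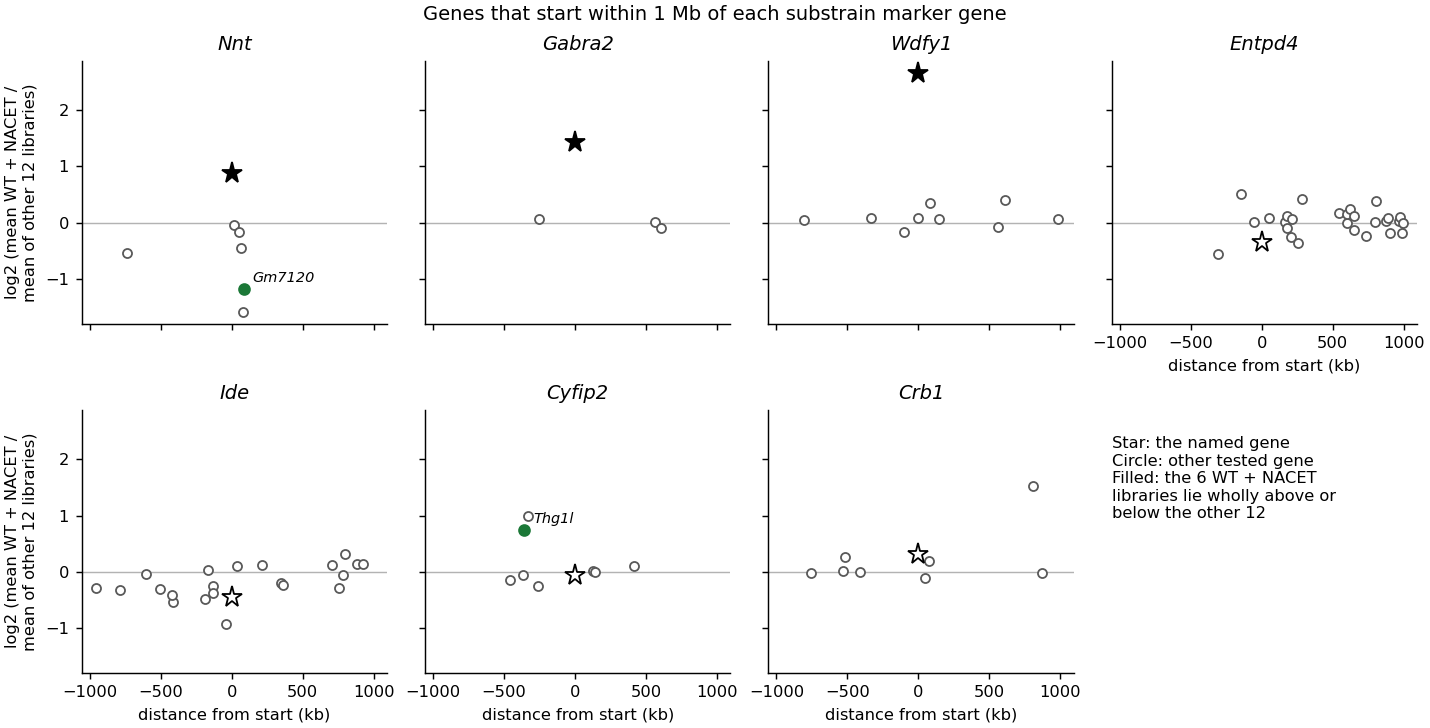
Log2 ratio of the mean of the 6 WT + NACET libraries to the mean of the other 12 (vertical axis) for every tested gene that starts within 1 Mb of each of the 7 genes, against its distance in kb (horizontal axis, positive toward higher positions). Filled circles mark the 2 neighbours whose WT + NACET libraries lie wholly apart, Gm7120 and Thg1l, and stars mark the 7 genes.

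Genes of the same pathways, with 4 tested genes of a list of other C57BL/6 substrain variants, were counted beside the 7. Of 86 related genes tested, 16 (18.6%) passed in Akita + NACET vs Akita by edgeR, beside 9.65% of all tested genes. In Akita vs WT 12 (14.0%) passed beside 7.64%, and in WT + NACET vs WT 3 (3.49%) passed beside 1.48%. The lists, like the 7 genes, were chosen with earlier results of these data known. Counts and shares of related genes are therefore a description in every contrast, and so are the calls on them in WT + NACET vs WT. In Akita + NACET vs WT 0 passed by edgeR and by DESeq2 (2 at an unadjusted p under 0.05, which 4.63% of all tested genes reached). GABA-A receptor subunits were 6 of the 16, 6 of the 12 and 1 of the 3. The other substrain variant genes were 1 of the 16, 0 of the 12 and 1 of the 3. Of 15 subunits other than Gabra2, 6 were lower in Akita than WT and 6 were higher in Akita + NACET than Akita, with median log2 changes of -0.43 and 0.44 beside -0.015 and -0.0032 over all tested genes. Gabrb1, a beta subunit, was lower in Akita than WT (-0.83) and higher in Akita + NACET than Akita (0.81). Gabrg3 fell in Akita vs WT (-0.97, adjusted p = 0.0155 by edgeR), and also in WT + NACET vs WT (-0.89, adjusted p = 0.0131 by edgeR), where Gabra2 was higher. Amacrine cell markers, from cells that release GABA, passed as lower in Akita vs WT for 3 of 4, with summed levels of 194 to 285 CPM in Akita and 316 to 436 CPM in WT. Their part in the subunit result was not tested.

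The mitochondrial NADPH and thiol genes, the company of Nnt, had 2 of 16 higher in Akita vs WT and 3 of 16 lower in Akita + NACET vs Akita, with medians of 0.03 and -0.02 on the log2 scale. Sod2, the mitochondrial superoxide dismutase, was higher by 0.36 in Akita vs WT and lower by 0.34 in Akita + NACET vs Akita. For Glrx2, a mitochondrial glutaredoxin, the same values were 0.30 and 0.31. Both contrasts use the same Akita libraries, with opposite sign, so a high Akita mean alone would give such a pair. Gpx4, which reduces lipid peroxides, fell by 0.57 in Akita + NACET vs Akita (adjusted p = 0.0193 by edgeR). None of the 16 passed in WT + NACET vs WT.

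Of the Crumbs complex of Crb1, Lin7c and Epb4.1l5 (2 of 15) were higher in Akita vs WT, by 0.56 and 0.46, and lower in Akita + NACET vs Akita (-0.40 and -0.38). Of the WAVE complex of Cyfip2, Wasf3 (1 of 11) was higher in the former (0.46) and lower in the latter (-0.35). Of the NTPDase family of Entpd4, Entpd5 (1 of 6) was lower in Akita + NACET vs Akita (-0.35). Of the peptidases that share substrates with Ide, Nrd1, another insulinase, was higher in Akita vs WT (0.32). Nrd1 (-0.28) and Ctsb, the lysosomal cathepsin B (-0.28), were the 2 of 9 lower in Akita + NACET vs Akita. Ctsd, cathepsin D, was the 1 of 9 that passed in WT + NACET vs WT (0.49), with all of its WT + NACET libraries above the other 12. Several of these calls passed in fewer than 15 of 28 fits, namely Ctsb in 6, Entpd5 in 13 and Epb4.1l5 in 12 in Akita + NACET vs Akita, Nrd1 in 8 and Glrx2 in 9 in Akita vs WT, and Ctsd in 14 in WT + NACET vs WT. The other calls on named related genes passed in 17 to 26 of 28. The 28 include fits without a library of a group whose mean the contrast does not use. None of 10 genes of endosomal Toll-like receptor signalling, where Wdfy1 acts, passed in any of the 4 contrasts by edgeR.

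A last list held other genes with known C57BL/6 substrain variants. Dock2, which has a copy number variant in some C57BL/6N stocks, had 5 to 22 reads per library and passed in no contrast. Mmrn1 (0 to 3 reads) and Nlrp12 (0 to 4 reads) were too low to test. Adcy5, an adenylyl cyclase, had 6.17 ± 0.40 CPM in WT (n = 3), 5.31 ± 0.98 in WT + NACET (n = 6), 4.34 ± 0.98 in Akita (n = 4) and 7.0 ± 1.36 CPM in Akita + NACET (SD, n = 5). It was higher in Akita + NACET than Akita (log2 change 0.68, adjusted p = 0.0281 by edgeR).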

How the data were processed

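Poly(A) RNA of mouse retina was measured in 18 libraries. Per the study's methods and processing notes, the authors made TruSeq v2 libraries, sequenced them single end, aligned the reads to mm9 with TopHat2 2.1.0 and counted them per gene over exons with HTSeq 0.11.2, without strand. The deposited values are raw read counts. The annotation is not given in the sources used here. Names were placed with the GENCODE vM1 annotation of mm9, which holds 96.1% of them. As in the study, ribosomal RNA genes (206, with 0.977% of counts) were removed, and an entry without a name (0.0054%) was left out. No pair of replicates agreed within sampling noise.

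Groups came from the labels. All genes were fitted together with edgeR 4.0.16 (R 4.3.3, TMM, default filter with minimum count 10, robust quasi-likelihood test, 4 groups in 1 fit, Benjamini-Hochberg over 16183 genes, threshold 0.05). The biological coefficient of variation was 0.186. Intervals use the t distribution of the same fit. Correlations used log2 CPM with a prior count of 2. The study used DESeq2, run here (1.42.0) as an alternative. The script was tested on simulated data. Named genes are the 7, the 3 most alike for each, called related genes (at most 3 a list) and separated neighbours. The 7 genes and the lists were chosen with earlier results of these data known. Some genes that the rules would name are counted but not reported here.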

Additional observations from a re-analysis of the deposited data

Results flagged for a closer look

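A single value stood apart from its group. Crb1 was at 499.2 CPM in Akita + NACET replicate 1, and the other 4 libraries of that group had 387 to 412 CPM. Of 21 groups of values screened for a lone library, this was the 1 found, and chance alone gives about 1 in 20. The same library had 18.5 CPM of Fgfbp3 and 97.0 CPM of Ide, within the range of replicates 2 and 3 or close to it.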

How the results depend on the processing

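The log2 differences between WT + NACET and WT kept their sign for Nnt, Gabra2, Wdfy1, Entpd4, Ide and Crb1 in all 27 alternatives. Cyfip2 ran from -0.1067 to 0.0075. The count of the 7 genes with WT + NACET libraries apart was 3 in each of 18 leave-one-out runs. Leaving out a library could by itself only add genes to that count, so these runs do not measure its stability. Ide passed in Akita + NACET vs Akita in 26 of 28 fits and Crb1 in 20 of 28. The 28 include fits without a WT or WT + NACET library, whose group means this contrast does not use. Both genes passed in all of those, so the tallies make the calls look firmer.

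The counts rested on the fit. Of the 7 genes, DESeq2 on all groups called 2 in Akita vs WT, where edgeR called 0. In Akita + NACET vs Akita, edgeR on the 2 groups called 1 and the fit with the outside-exon share called 0, against 2. Over all genes in Akita vs WT (1237), DESeq2 on all groups called 2056, edgeR on the 2 groups 148 and the fit with the outside-exon share 0. In Akita + NACET vs Akita (1562) edgeR on the 2 groups called 700, no filter 1010 and the outside-exon share 0. In Akita + NACET vs WT (1) DESeq2 called 11 on all groups and 28 on the 2 groups, edgeR on the 2 groups 3 and no filter 2. In WT + NACET vs WT (240) the values were 712 and 917 with DESeq2 on all and on the 2 groups, and 61 with the outside-exon share. Of the related genes, edgeR on the 2 groups called 1 in Akita vs WT and 6 in Akita + NACET vs Akita, and the outside-exon share left 0 in both. In WT + NACET vs WT (3), DESeq2 called 8 related genes on all groups and 9 on the 2 groups, edgeR on the 2 groups 5, a mean count of at least 50 gave 6 and the outside-exon share 1. Neighbours apart (2) were 1 with DESeq2 size factors and 4 without scaling. The cause of these differences was not tested. The mean share was lower in WT + NACET and Akita than in WT and Akita + NACET, so that share and group cannot be told apart.

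Replicate numbers are shared between groups. Over 22 same-number pairs the correlation of deviations ran from -0.33 to 0.34, and 4 were above 0.1. Pairs of unlike number were not compared, so these values cannot show whether the number pairs the libraries. With the number as a replicate block, edgeR called 1 of the 7 genes (Ide), 219 genes in all and 2 related genes in Akita + NACET vs Akita, 507 genes and 2 related genes in Akita vs WT, 0 genes in Akita + NACET vs WT and 1 related gene in WT + NACET vs WT. Entpd4 in Akita + NACET vs WT turned from -0.05 to 0.0114 under the block.

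Leaving out 1 library at a time moved the counts widely. Of the 7 genes 0 to 2 were called in Akita vs WT (2 without Akita replicate 3, 1 without WT replicate 3) and 0 to 3 in Akita + NACET vs Akita (0 without Akita replicate 4, 3, with Gabra2 added, without Akita replicate 3). All genes called ran from 0 to 1612 in Akita vs WT (0 without WT replicate 1 or 2, 234 without Akita replicate 4). They ran from 1 to 1754 in Akita + NACET vs Akita (1 without Akita replicate 4, 101 without Akita + NACET replicate 5, 425 without its replicate 2, 872 without its replicate 4, and 808 and 992 without Akita replicates 1 and 3). They ran from 0 to 2 in Akita + NACET vs WT. In WT + NACET vs WT they ran from 72 to 461 (72 and 77 without WT replicates 1 and 2, 110 and 153 without WT + NACET replicates 3 and 5, 423 without Akita replicate 4, 461 without Akita + NACET replicate 5). Related genes called ran from 0 to 15 in Akita vs WT, 0 to 18 in Akita + NACET vs Akita and 1 to 7 in WT + NACET vs WT. Neighbours apart ran from 2 to 4 (4 without WT + NACET replicate 1).

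Some differences near 0 changed sign. The leave-one-out ranges were -0.06 to 0.2598 for Nnt and -0.0121 to 0.0849 for Entpd4 in Akita + NACET vs Akita, -0.1208 to 0.0193 for Wdfy1 in Akita vs WT, and -0.1183 to 0.1174 for Crb1 in Akita + NACET vs WT. Entpd4 had 0.0276 in Akita vs WT and -0.0783 in Akita + NACET vs Akita with the outside-exon share, and -0.0121 in the latter without Akita replicate 3. Wdfy1 in Akita vs WT had 0.0193 without Akita replicate 1 and 0.0021 without WT replicate 1. Nnt in Akita + NACET vs Akita had -0.06 without Akita replicate 4. Crb1 in Akita + NACET vs WT had 0.0108 without Akita + NACET replicate 5 and 0.1174 without WT replicate 3.

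Low counts limit Gabra2 (46 to 398 reads) and Nnt (85 to 401 reads) most. Counts per gene show neither alleles nor splice forms, and no genotype of the mice was used here.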
